A study of Drosophila melanogaster with 3 samples.

Results

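The genes of the proteasome, the protease complex that degrades ubiquitin-tagged proteins, were examined for salr ChIP-seq peaks at their promoters in whole Drosophila melanogaster prepupae. Protein-coding genes of the Ensembl BDGP6 annotation whose symbol begins with Prosalpha, Prosbeta, or Rpn or Rpt followed by a digit were taken, which gave 48 of 13945 protein-coding genes. They comprise 32 general subunit genes and 16 testis-type paralogs, whose symbols end in T or R, with or without a further digit. A transcription start site (TSS) was the first base of any annotated transcript, and a gene was counted when a peak summit lay within 1000 bp of one of its TSSs.

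The 3 libraries are labelled as biological replicates of 1 group: whole prepupae, given as 24 hours old, with males and females pooled, of a transgenic line. The line stably expresses a fusion of salr, a zinc finger protein that regulates transcription, with GFP at the C terminus. The labels give no untagged or other comparison group, and they do not state what drives the fusion or whether it adds a copy of the salr locus. The labels disagree on what the libraries are: the assay title and the antibody field describe ChIP for salr, whereas the free-text description of each one calls it an input control. Nothing below settles that question, and the named control was not analysed here. Deposited were a list of 30000 peaks per library, a list of 30000 peaks from the pooled libraries, and a list of 3839 peaks thresholded on reproducibility between libraries (irreproducible discovery rate, IDR), which are the 3839 strongest pooled peaks. The files hold no read counts and no expression, so depth is unknown and neither stage nor tissue was checked against marker genes. In chromatin of whole animals, strong binding in few cells and weak binding in many cannot be told apart.

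The proteasome is built from a barrel-shaped core particle and a regulatory particle that caps it. Alpha subunits form the outer rings of the core and gate its entrance, and beta subunits form the inner rings, which hold the protease sites. In the regulatory particle, a base with AAA ATPases unfolds substrates and a lid removes their ubiquitin. In Drosophila, many subunits have a paralog expressed in the testis, and the transcription factor cnc, with the small Maf protein maf-S, is known to activate proteasome genes under stress.

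Few proteasome genes had a strong salr peak at the promoter. An IDR summit lay at 3 of the 48 genes (6.25%, 95% Wilson interval 2.15% to 16.8%), against 14.8% of all protein-coding genes, a share that would amount to 7.1 of 48 genes and lies inside the interval. All 3 were general subunit genes (3 of 32, 9.38%, Wilson interval 3.24% to 24.2%), and all 3 encode lid subunits: Rpn3, Rpn5 and Rpn8. Of the 8 lid genes that fit the symbol rule, 3 thus had an IDR summit (37.5%, Wilson interval 13.7% to 69.4%). That interval also holds the 14.8% of all protein-coding genes. The core particle had 0 of 14, which allows a share of up to 21.4%. The base had none among 6 ATPase and 4 non-ATPase genes, which allows shares of up to 50% and 75%. These counts do not separate the lid, core or base from all genes. No testis-type paralog had one (0 of 16, which allows a share of up to 18.8%). Of the 3 genes, Rpn5 alone had a matching summit among the strongest peaks of both other libraries when library 1 or library 3 was left out, and Rpn5 and Rpn8 had one without library 2. The intervals and limits cover counting error only, and genes that share a promoter are not independent.

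In the pooled list, 17 of 48 proteasome genes had a summit (35.4%), with 13 of 32 general genes (40.6%) and 4 of 16 testis-type genes (25%), against 44.4% of all protein-coding genes. Within the regulatory particle these were the lid genes Rpn3, Rpn5, Rpn8, Rpn9 and Rpn11, the ATPase genes Rpt2, Rpt5 and Rpt6, and Rpn2 and Rpn13 of the base. Within the core they were the alpha genes Prosalpha2, Prosalpha3 and Prosalpha5, while the beta ring had 0 of 7. The strongest pooled summit had a median relative signal, that is, signal divided by the median of its list, of 1.37 at the 13 general genes, 0.708 at the 4 testis-type genes and 1.61 at 6188 protein-coding genes. For scale, genes with ribosomal protein symbols reached a median of 5.47 at 75 genes, and 62 of those 92 genes (67.4%) had an IDR summit. These levels are given side by side and were not tested.

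The libraries differed in how many proteasome genes they called. Among the 3839 strongest peaks of each, library 1 had a summit at 7 of the 48 genes, library 2 at 1 and library 3 at 2, against 16.6%, 13.8% and 13% of all protein-coding genes in libraries 1, 2 and 3. The mean was 3.33 ± 3.21 genes (SD, n = 3 libraries), and it was 1.5 genes without library 1. As a share, the proteasome genes lay below all protein-coding genes in each library, with differences of -1.97, -11.7 and -8.86 percentage points (mean -7.52 ± 5.02, SD, n = 3). The general genes taken alone did not keep 1 direction, with differences of 5.32, -10.7 and -6.77 points (mean -4.05 ± 8.35, SD, n = 3). With 3 libraries an exact two-sided sign-flip test cannot give a p below 0.25, so none is given.

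**Figure D1:**
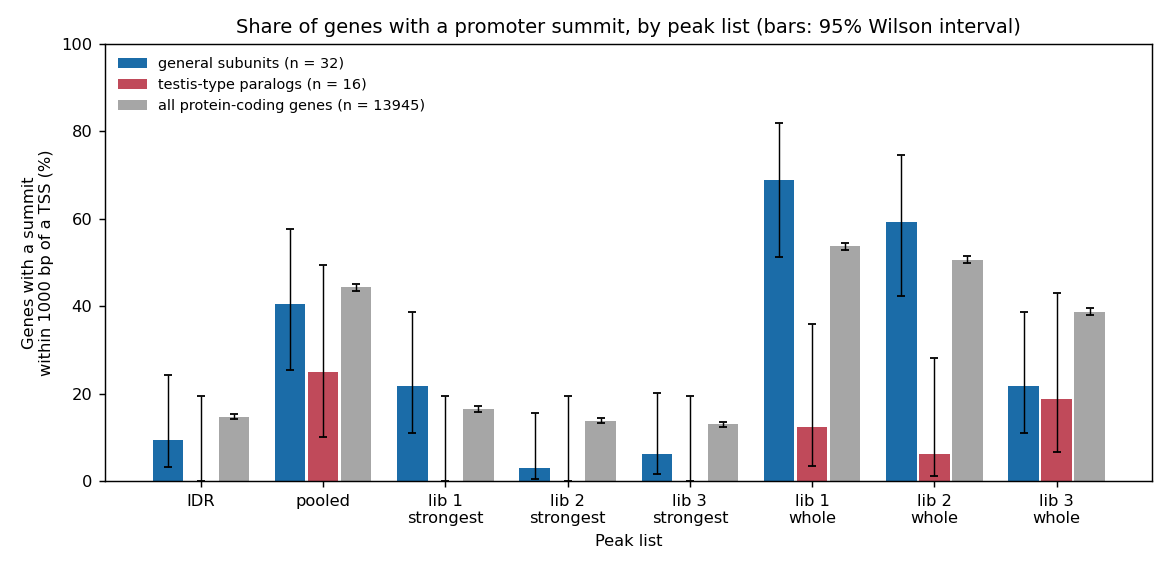
Percentage of genes with a summit within 1000 bp of a TSS (vertical axis) in each peak list (horizontal axis), for general subunits, testis-type paralogs and all protein-coding genes, with error bars for the 95% Wilson interval. Testis-type genes are at 0 in the IDR list and among the strongest peaks of each library, and the general genes stand above all genes in the whole lists of libraries 1 and 2 but below them in library 3.

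In the whole lists, which reach down to weak peaks, 24 proteasome genes were called in library 1, 20 in library 2 and 10 in library 3, against 53.7%, 50.7% and 38.8% of all protein-coding genes. General genes made up 22, 19 and 7 of these. In all 3 libraries a summit was found at 4 of 48 genes, Rpn5, Rpn8, Rpn9 and Rpt5, against 24.9% of all protein-coding genes. In no library was a summit found at 14 of 48, against 28.9%. These 14 included 4 general genes: Prosalpha1, Prosbeta2 (the trypsin-like site of the core), Rpn7 of the lid and Rpt1 of the ATPase ring. Most general genes lay in between, with 12 called in 1 library and 12 in 2 libraries (37.5% each). The shares of all protein-coding genes were 23.8% and 22.4%.

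Rpn5, a scaffold subunit of the lid, had the strongest summit of any proteasome gene in the pooled list and in libraries 2 and 3, while in library 1 Rpn8 and Prosalpha6 were stronger. Its IDR peak lay on 3R from 5789064 to 5789407, with the summit 257 bp upstream of the Rpn5 TSS, and ranked 1707 in the pooled list. The relative signal was 2.96 in library 1, 2.50 in library 2 and 4.57 in library 3 (mean 3.34 ± 1.09, SD, n = 3), with list ranks of 2381, 2938 and 1630. Rpn5 was the only proteasome gene among the strongest peaks of every library. Even so, 52.4% of the 2064 protein-coding genes with an IDR summit had a stronger one. The summit lay in an intron of Hat1, a histone acetyltransferase gene transcribed the other way, whose TSS was nearer (148 bp) than that of Rpn5. The sequence 60 bp to each side of the summit is shown because it is the strongest pooled peak at a proteasome gene, from chr3R:5789176-5789296, plus strand, of the dm6 reference genome, with capitals for the words TATAAA and AATATT.
Rpn5 summit: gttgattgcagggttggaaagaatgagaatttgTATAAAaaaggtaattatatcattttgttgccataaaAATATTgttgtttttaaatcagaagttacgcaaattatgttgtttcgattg
The window is 27.3% G and C. The words searched for and their shares in promoters are given further on.

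Rpn8, a lid subunit that pairs with the deubiquitinase Rpn11, had an IDR peak on 2R from 24402646 to 24402989, at pooled rank 3108. Its summit lay 187 bp upstream of the second of 2 annotated Rpn8 TSSs, within the gene, and 138 bp from the TSS of the kinase gene Slik. Within 100 bp of that summit, the relative signal was 3.10 in library 1, 0.856 in library 2 and 2.64 in library 3 (mean 2.20 ± 1.19, SD, n = 3). Libraries 1 and 3 were high and library 2 was below the median peak of its own list at that position. Library 2 had a stronger summit 512 bp upstream, with a relative signal of 1.5. Of the protein-coding genes with an IDR summit, 83.9% had a stronger one. With only the 5 prime end of the gene record as TSS, Rpn8 was no longer counted.

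Rpn3, another scaffold subunit of the lid, had its IDR peak on 2L from 19051683 to 19052026, with the summit 65 bp downstream of a TSS and inside a Rpn3 exon. It ranked 3792 of 3839, so 98.8% of protein-coding genes with an IDR summit had a stronger one. Within 100 bp the relative signal was 1.90 in library 1 and 0.866 in library 2, and library 3 had no summit there. Library 1 had a stronger summit 150 bp upstream of the Rpn3 TSS, with a relative signal of 2.59, which lay 28 bp from the TSS of the divergent neighbour l(2)37Bb.

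**Figure D2:**
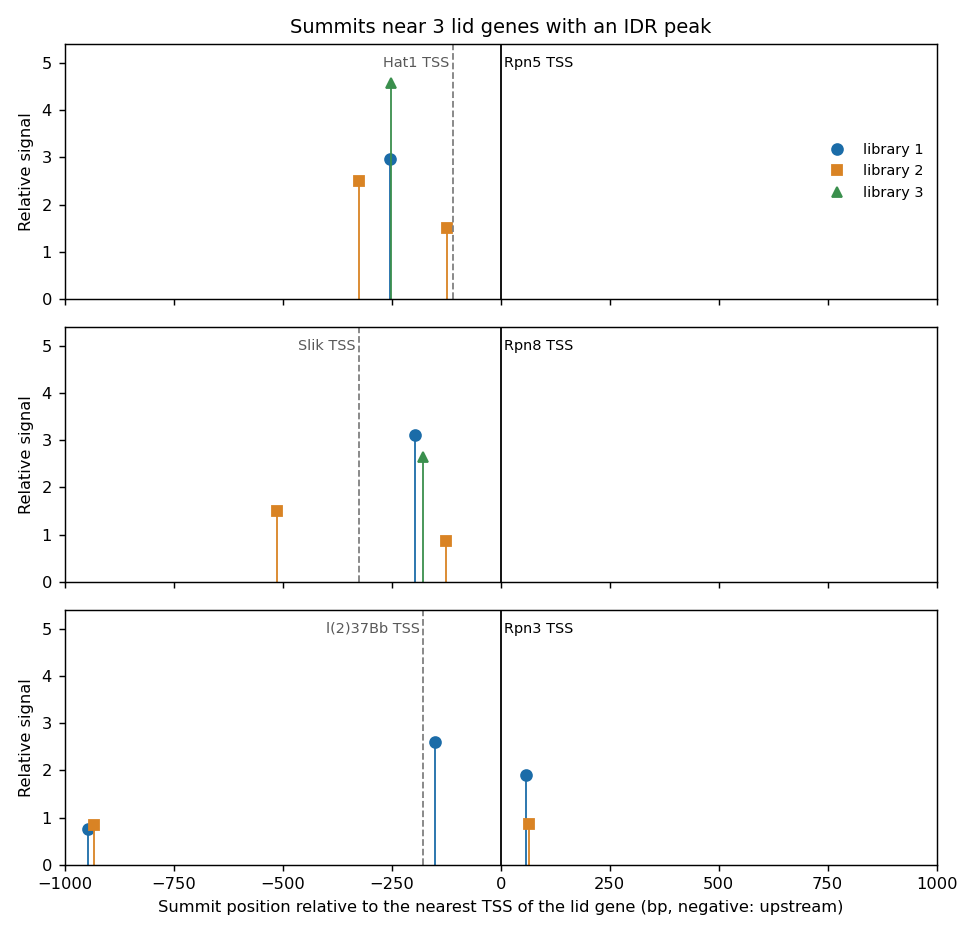
Relative signal (vertical axis, signal divided by the list median) of every summit within 1000 bp of the nearest TSS of Rpn5, Rpn8 and Rpn3, by position in bp (horizontal axis, negative is upstream), with 1 colour and marker per library and a dashed line at the TSS of the divergent neighbour. Libraries 1 and 3 coincide at Rpn5 (relative signals 2.96 and 4.57) and lie close together at Rpn8, and library 3 has no summit at Rpn3.

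Outside the IDR set, Rpt5 had the strongest pooled summit. Rpt5, an ATPase of the base, had the most even signal over the libraries, with 1.62, 1.61 and 1.57 in libraries 1, 2 and 3 (mean 1.60 ± 0.0274, SD, n = 3) and pooled rank 4279. Its summit lay 30 bp upstream of the Rpt5 TSS and 12 bp from that of RanBP3, a nuclear transport gene. Rpn9 of the lid had pooled rank 7127, with relative signals of 1.43, 1.51 and 1.02 in libraries 1, 2 and 3. Rpn13, a ubiquitin receptor of the base, had 2.73 in library 1 and 1.77 in library 2, and no summit in library 3. Its pooled summit, next after that of Rpt5 at rank 6559, lay 146 bp from its TSS and 125 bp from that of CtsL1, a cathepsin gene. The library 1 summit was nearest to Rpn13, 73 bp upstream of its TSS, and the library 2 summit lay 77 bp upstream. Rpt6, whose pooled summit ranked 8868 and had no other gene's TSS within 1000 bp, had 0.860 in library 1 and 1.65 in library 3, with none in library 2.

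Several strong summits were seen in library 1 alone. Prosalpha6, an alpha ring gene, had a relative signal of 3.06 there, 73 bp upstream of its TSS and 62 bp from that of the cholesterol transport gene Npc1a. In library 2 its strongest summit was 419 bp upstream at 1.02, library 3 had none and the pooled list had none. Rpn6 of the lid had 2.45 in library 1, at the promoter it shares with ave, 1.18 in library 2 and none in library 3. Rpn2, a large scaffold of the base, had 2.19 in library 1 and none in the other two, and its summit was 44 bp from the TSS of Slbp, the histone mRNA stem-loop binding protein gene. Among beta ring genes, Prosbeta1, which carries the caspase-like site, was highest, with 1.80 in library 1 and 0.727 in library 2. These 2 summits lay apart, 98 bp upstream in library 1 and 974 bp upstream in library 2. Whether the depth of library 1 moved with this excess was not tested, since the files give no depth.

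**Figure D3:**
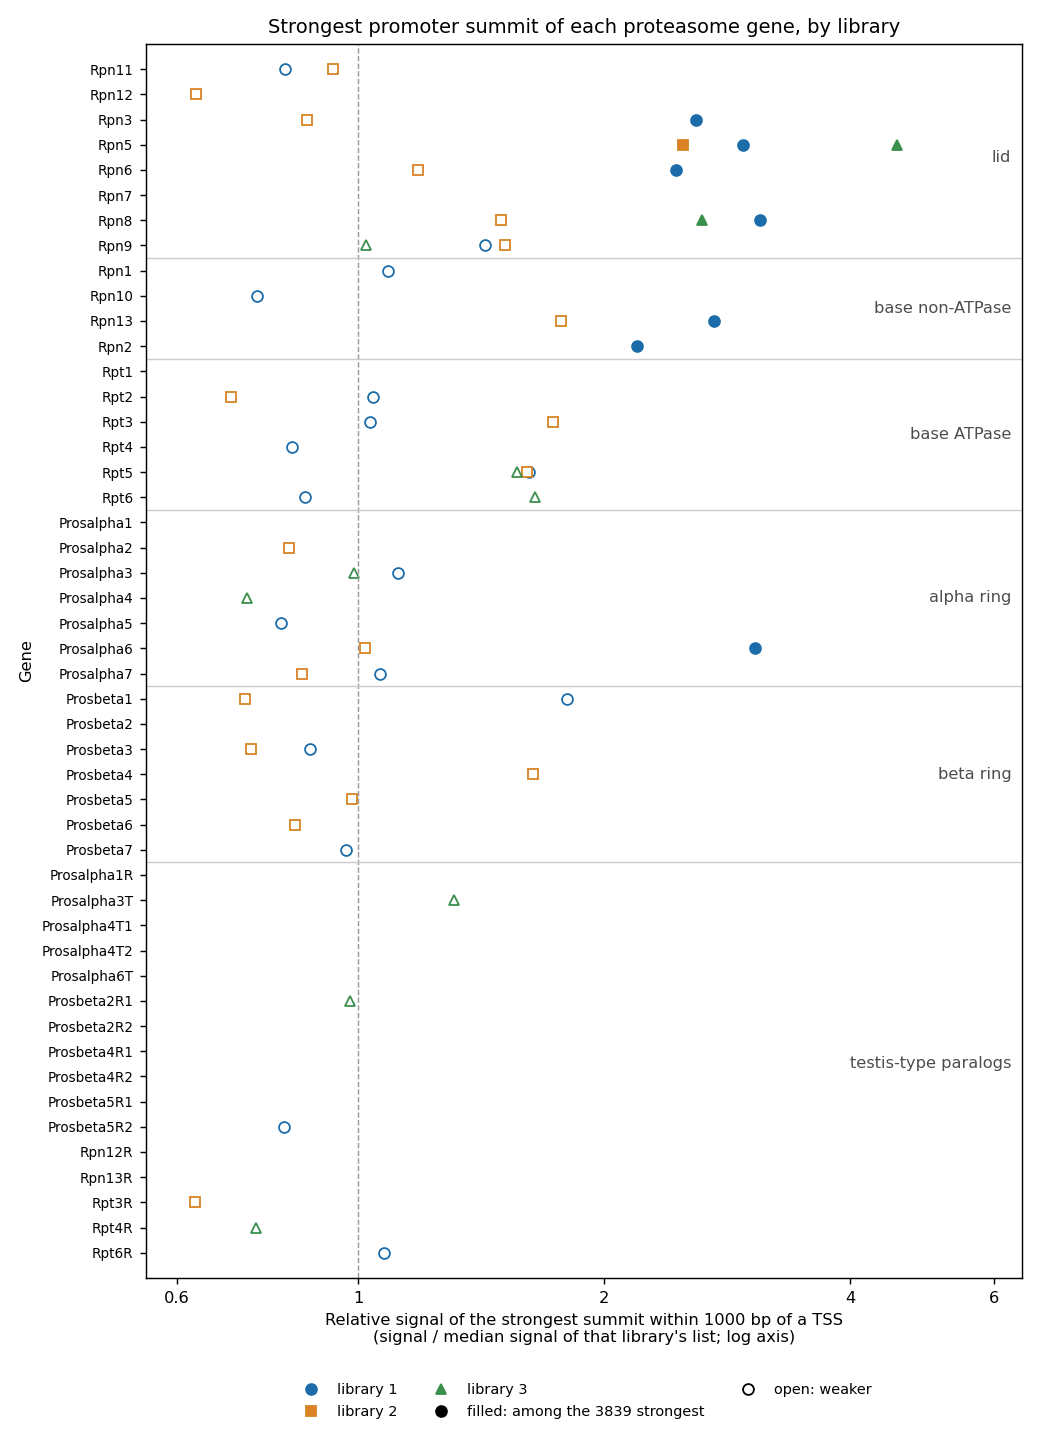
Relative signal (horizontal log axis, signal divided by the median of the library's list) of the strongest summit within 1000 bp of a TSS for each of the 48 proteasome genes (rows, grouped by role), with 1 marker per library, filled where the peak was among the 3839 strongest. Filled markers are at Rpn5, Rpn8, Rpn3, Rpn6, Rpn13, Rpn2 and Prosalpha6, and every testis-type marker is open and at or below 1.31.

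The other general genes had no summit among the strongest peaks of any library. Prosalpha2, Prosalpha4, Prosbeta4, Prosbeta5, Prosbeta6, Prosbeta7, Rpn1, Rpn10, Rpn12 and Rpt4 were each called in a single library, as was Prosalpha5. Their relative signals ran from 0.632 at Rpn12 to 1.64 at Prosbeta4, both in library 2. Prosbeta5, which carries the chymotrypsin-like site, had 0.983 in library 2. Prosalpha3, Prosalpha7, Prosbeta3, Rpn11, Rpt2 and Rpt3 were called in 2 libraries, and the highest of these was Rpt3 with 1.73 in library 2. A call in 2 libraries need not be the same peak. The strongest summits in libraries 1 and 2 lay 700 and 506 bp upstream at Rpt3. At Prosalpha7 they lay 74 bp upstream and 293 bp downstream. At Prosbeta3 they lay 7 and 714 bp upstream, and library 2 also had a weaker summit 24 bp downstream. Beyond 1000 bp, the nearest IDR summit lay 1102 bp from Prosbeta6 and 1348 bp from Rpt3.

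The testis-type paralogs had few and weak summits. Of the 16, 10 had none in any library, 6 had one in a single library, and none had one in more. Of the 32 general genes, 4 had none, 12 had one in a single library, and 16 had one in 2 or 3 libraries. For all protein-coding genes, the shares were 28.9% with none, 23.8% in a single library, 22.4% in 2 and 24.9% in 3. Among the strongest peaks, the share of general minus testis-type genes was 21.9, 3.12 and 6.25 percentage points in libraries 1, 2 and 3 (mean 10.4 ± 10, SD, n = 3), all from general genes. In the whole lists it was 56.2, 53.1 and 3.12 points (mean 37.5 ± 29.8, SD, n = 3). The direction was the same in the 3 libraries, but library 3 had almost no gap, with 7 of 32 general and 3 of 16 testis-type genes. Whole-list shares in libraries 1, 2 and 3 were 68.8%, 59.4% and 21.9% for general genes and 12.5%, 6.25% and 18.8% for testis-type genes. For all protein-coding genes they were 53.7%, 50.7% and 38.8%, so in library 3 both classes lay below all genes.

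Prosalpha3T had the strongest testis-type summit, 18 bp downstream of its TSS, with a pooled relative signal of 0.943 at rank 16573. It had 1.31 in library 3 and no summit in libraries 1 and 2. Prosbeta2R1 had 0.728 in the pooled list, 372 bp upstream, and 0.977 in library 3 alone. Rpt6R had 0.687 in the pooled list, 98 bp downstream, and 1.07 in library 1 alone. Prosalpha4T1 had 0.676, with its summit 442 bp upstream in coding sequence of CG42322, and no library had a summit within 1000 bp. All 4 were below the median peak of the pooled list. Prosbeta5R2 (0.811 in library 1), Rpt3R (0.631 in library 2) and Rpt4R (0.749 in library 3) were found in 1 library only. Prosalpha1R, Prosalpha4T2, Prosalpha6T, Prosbeta2R2, Prosbeta4R1, Prosbeta4R2, Prosbeta5R1, Rpn12R and Rpn13R had no summit in any library or in the pooled list.

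Set beside its own parent, a testis-type gene was called in fewer libraries in 11 of 16 pairs, which draw on 12 parents. In 1 pair, Prosbeta2R1 with Prosbeta2, the testis-type gene was called in more libraries, 1 against 0. The other 4 pairs were equal, of which Prosalpha1R with Prosalpha1 and Prosbeta2R2 with Prosbeta2 had none on either side. In the pooled list the order was not seen, with a summit at the testis-type gene in 4 pairs and at the parent in 3. Some pairs share a parent and are not independent.

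The promoters of general subunit genes often faced another gene. A divergent TSS within 500 bp upstream was found at 21 of 32 general genes (65.6%) and 3 of 16 testis-type genes (18.8%), against 29.6% of all protein-coding genes. All 3 genes with an IDR summit, and all 7 genes among the strongest peaks of library 1, were among these 21. Protein-coding genes with such a partner also had an IDR summit more often, at 24.3%, than those without, at 10.8%. Among general genes with a partner, 3 of 21 had an IDR summit (14.3%, against 24.3%). A strongest-list summit in library 1 lay at 7 of 21 (33.3%, against 28%). Counts this small give no direction in either list. When a summit was given only to the gene with the nearest TSS, Rpn3 was the 1 proteasome gene left in the IDR list, against 10.6% of protein-coding genes. In the strongest peaks, that rule left a mean of 0.667 ± 1.15 proteasome genes (SD, n = 3), against a mean of 10.5% of protein-coding genes, and the gap between general and testis-type shares was 2.08 ± 3.61 percentage points (SD, n = 3). Which of the 2 genes at a shared promoter a peak belongs to cannot be told apart from peak position.

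The position of the strongest summit at general genes was set beside that at all genes, list by list. In the pooled list, 9 of 13 (69.2%) lay within 200 bp upstream of the TSS, against 31.6% of protein-coding genes with a summit. In library 1 it was 16 of 22 (72.7%) against 32.7%, in library 2 it was 6 of 19 (31.6%) against 27.9%, and in library 3 it was 4 of 7 (57.1%) against 28.4%. The gap was thus wide in library 1 and narrow in library 2. In the IDR list, 1 of 3 general genes (33.3%) had its summit there, against 43.8%, and 3 genes are too few to give a direction. The median distance to the nearest IDR summit was 7132 bp for general genes, 26751 bp for testis-type genes and 11385 bp for all protein-coding genes.

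A housekeeping promoter word was frequent in general genes and not found in testis-type genes. The window from 250 bp before to 50 bp after the gene start was searched on both strands, in the Release 6 (dm6) reference, for 6 words. The DNA replication-related element (DRE), TATCGATA, is a core promoter word of many housekeeping genes in Drosophila. It occurred at 12 of 32 general genes (37.5%, Wilson interval 22.9% to 54.7%) and 0 of 16 testis-type genes, against 9.36% of all protein-coding genes. A count of 0 of 16 allows a share of up to 18.8%, so it does not separate testis-type genes from all genes. The 12 were Prosalpha3, Prosalpha5, Prosalpha6, Prosbeta1, Prosbeta2, Prosbeta6, Rpn3, Rpn7, Rpn9, Rpn12, Rpn13 and Rpt5. The core of Ohler motif 1, GGTCACAC, another housekeeping promoter word, occurred at 5 general genes and 0 testis-type genes, against 7.70%. The response core of cnc, TGACNNNGC, occurred at 5 general genes (Prosalpha2, Prosbeta3, Rpn1, Rpn7 and Rpt6) and at the testis-type gene Prosbeta4R2, against 8.63%. For each of these 2 words the general share was 15.6% (Wilson interval 6.86% to 31.8%), an interval that holds the share of all genes. The Ohler and cnc words can overlap, since GGTCACAC read on the opposite strand holds TGAC.

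**Figure D4:**
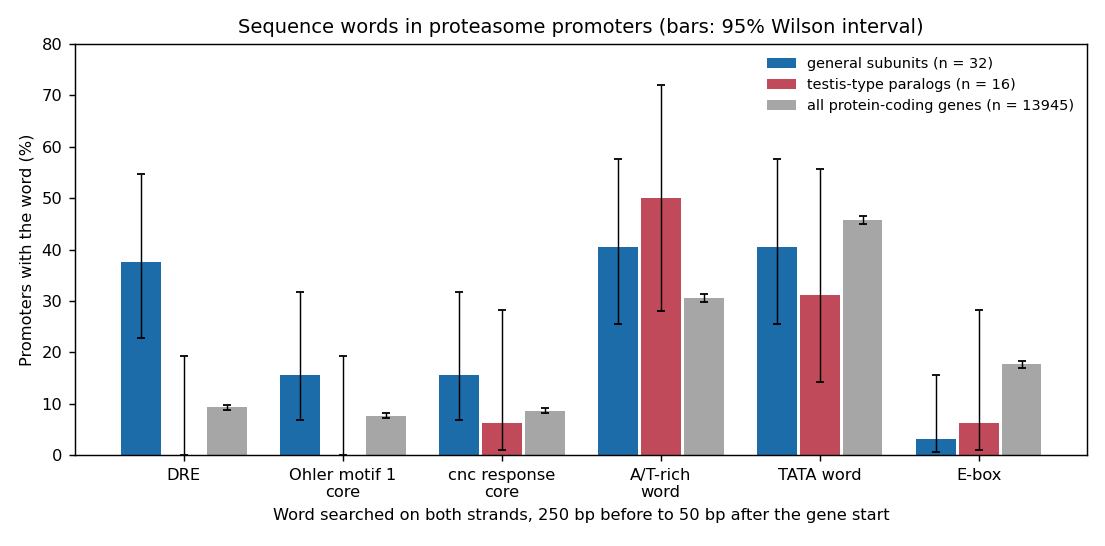
Percentage of promoters (vertical axis) that hold each of 6 words (horizontal axis) in the window from 250 bp before to 50 bp after the gene start, for general subunits, testis-type paralogs and all protein-coding genes, with error bars for the 95% Wilson interval. The DRE bar is at 37.5% for general genes, at 0 for testis-type genes and at 9.36% for all genes.

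The other 3 words were searched in the same windows. AATATT, an A/T-rich word, was held by 13 of 32 general (40.6%) and 8 of 16 testis-type promoters (50%), against 30.6%. TATAAA was held by 13 general (40.6%) and 5 testis-type promoters, against 45.8%. The E-box CAGCTG was held by 1 promoter in each class, Rpt3 and Rpt3R, against 17.7%, and was thus held by a smaller share of general promoters (3.12%) than of all. Mean G and C content was 34.6% in general promoters and 35.7% in testis-type promoters, against 39.1% in all.

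The DRE was also set beside the peaks. An IDR summit lay at 1 of 12 general genes with a DRE and at 2 of 20 without. Among all protein-coding genes the shares were 18.1% with a DRE and 14.5% without, and counts this small do not separate the general genes from either. Within 100 bp of the pooled summit, 5 of 13 general genes (38.5%) held the word, against 4.31% of protein-coding genes with a summit. There TATAAA was held by 6 (46.2%, against 24.9%) and AATATT by 4 (30.8%, against 19.1%). The Ohler and cnc words were held by 1 each (7.69%, against 3.99% and 5.59%). The E-box was held by 2 (15.4%, against 12.4%), so its lower share in general promoters was not seen at the summits. Pooled summits of general genes lay within 200 bp upstream of the TSS more often than those of all genes, as given above.

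A few promoters are shown as the 120 bases before the TSS, on the strand of the gene, from the dm6 reference genome, with a DRE in capitals. Prosalpha6 (chr2L:10221231-10221350, plus strand) had a DRE starting 16 bp before the TSS and a strong summit in library 1 alone. Prosbeta2 (chr3L:14999831-14999950, plus strand) had one starting 10 bp before the TSS and no summit in any library. Prosbeta6 (chr3L:16610419-16610538, minus strand) had one starting 44 bp before the TSS and a weak summit in library 2 alone. Rpt6 (chrX:21315932-21316051, plus strand) and its testis-type paralog Rpt6R (chr3R:30583698-30583817, minus strand) are a pair with a pooled summit at both genes, and neither stretch holds the full word.
Prosalpha6: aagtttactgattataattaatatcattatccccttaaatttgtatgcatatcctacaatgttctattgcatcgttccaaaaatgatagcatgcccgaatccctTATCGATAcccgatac
Prosbeta2: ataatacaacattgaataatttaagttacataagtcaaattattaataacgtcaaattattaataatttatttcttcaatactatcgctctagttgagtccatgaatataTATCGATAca
Prosbeta6: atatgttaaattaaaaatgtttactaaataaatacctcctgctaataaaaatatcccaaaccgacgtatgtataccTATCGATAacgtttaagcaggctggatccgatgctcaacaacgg
Rpt6: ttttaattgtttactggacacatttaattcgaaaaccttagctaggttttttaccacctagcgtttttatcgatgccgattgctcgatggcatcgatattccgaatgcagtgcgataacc
Rpt6R: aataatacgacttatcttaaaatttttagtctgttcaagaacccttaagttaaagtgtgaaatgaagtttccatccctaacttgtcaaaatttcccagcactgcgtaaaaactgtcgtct

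Genes that act on the proteasome or on ubiquitin, but have other symbols, included some with stronger summits than any subunit gene. Of 32 listed, 30 were matched by symbol, and 6 of them (20%, Wilson interval 9.51% to 37.3%) had an IDR summit, against 14.8% of all protein-coding genes. The regulator cnc and the gene of its inhibitor, Keap1, were among them. At cnc, a peak on 3R from 23190033 to 23190177 had its summit 312 bp downstream of a TSS, and the strongest relative signals were 5.52, 4.76 and 1.54 in libraries 1, 2 and 3, the last at another position. Keap1, whose product holds cnc inactive, had 8.83, 2.51 and 8.53 (mean 6.62 ± 3.56, SD, n = 3). Its pooled summit lay 994 bp upstream, just inside the distance limit, and is shared with kuk, and the library 2 value came from a summit 540 bp downstream. The partner gene maf-S had no IDR summit, with 1.17 in library 2 and 1.52 in library 3.

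The other 4 were RpS27A, which encodes a ubiquitin fusion protein, alien, a COP9 signalosome gene, Pomp, whose product matures the core particle, and Uch-L5, a deubiquitinase of the proteasome. RpS27A was highest, with 8.43 in library 1, 4.01 in library 2 and none in library 3, at a promoter it shares with Ip259. It is also 1 of the 92 genes with ribosomal protein symbols, of which 67.4% had an IDR summit. At Pomp the values were 2.31 in library 1 and 1.11 in library 2, with none in library 3. At Uch-L5 they were 3.26, 1.72 and 2.09 (mean 2.36 ± 0.808, SD, n = 3), and its pooled summit is shared with Jarid2. At alien they were 4.19, 1.22 and 5.01 (mean 3.47 ± 1.99, SD, n = 3), and its pooled summit is shared with CG18661 and Try29F. In library 1 the signals of Keap1, RpS27A, cnc, alien and Uch-L5 were above that of every subunit gene, the highest of which was Rpn8 at 3.10. So was that of Rad23, a listed gene without an IDR summit, at 3.46. The lid and the COP9 signalosome are related complexes, and 1 of 9 matched COP9 genes, alien, had an IDR summit, which is near the 14.8% of all protein-coding genes.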

How the data were processed

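ChIP-seq peak lists were analysed for 3 libraries of 1 group. Per the labels and the notes deposited with the libraries, the authors made all lists on dm6 with 1 shared control. Which aligner and caller they used is not given in the sources used here. Each peak has a deposited signal value whose scale no source here states. This value ranked the peaks of a list or was divided by the list median, so weak peaks sit near the lower end that the list length sets. All 3839 IDR peaks occur unchanged in the pooled list.

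Genes and TSSs came from Ensembl release 115 (BDGP6.54, 18164 genes without transposable elements). A summit counted for every gene with a TSS within 1000 bp. Summits of different lists were matched when at most 100 bp apart. Members and lists were chosen with earlier results of these data known, so no test was made over members. Shares carry 95% Wilson intervals, a count of 0 is given the limit of 3 counts, and libraries were the replicates for SDs. Every gene that fits the symbol rule is named, and values by library are given for those with an IDR summit and for testis-type genes with a pooled summit. The assignment of summits to genes was tested on simulated data. Tables were made with pandas 2.3.3 and numpy 2.4.6 in Python 3.11.15, and figures with matplotlib 3.10.9. Alternatives were other distances, TSS rules, list depths and leaving out each library.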

Additional observations from a re-analysis of the deposited data

How the results depend on the processing

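Direction, general genes above testis-type genes, was kept or the gap was 0 in the alternatives tried. The count of 3 proteasome genes with an IDR summit became 5 within 2000 bp (with Prosbeta6 and Rpt3, against 18.9% of all genes), 1 with the nearest TSS only (against 10.6%), and 1 above the median IDR signal (Rpn5, against 8.47%). Requiring a matched strong summit in both libraries left after leaving out 1 gave 1 to 2 genes, with 1 without library 1 (Rpn5) and 1 without library 3 (also Rpn5). The share of all protein-coding genes fell too under that rule, to 7.98%, 10% and 9.11% without library 1, 2 and 3. The 17 genes in the pooled list became 10 above its median signal, all general, against 32.6%. The mean of 3.33 proteasome genes among the strongest peaks was 0 for the 1000 strongest (against 4.77%), 18 for whole lists (against 47.7%) and 0.667 with the nearest TSS only, an alternative chosen after seeing the data (against 10.5%). It was 1.5 to 4.5 when 1 library was left out (against 13.4% to 15.2%). The gap of 10.4 percentage points was 0 for the 1000 strongest, 37.5 for whole lists and 2.08 with the nearest TSS only, and 4.69 to 14.1 without 1 library. Fewer or more peaks enter by construction. For other moves the cause was not tested. Divided by the median promoter peak, the Rpt5 signal was 1.43 in place of 1.60. Ranks follow signal within a list and gave no separate value. Against protein-coding genes with 1 TSS, also chosen afterwards, 1 of 36 proteasome genes (2.78%) had an IDR summit, against 10.2%. Depth is unknown, 0 of 16 testis-type genes allows a share of up to 18.8%, and 3 libraries allow no p under 0.25.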
